A study of Mus musculus with 20 samples.

Results

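The Cyp2 cytochromes P450 of mouse liver were described in 20 liver RNA-seq libraries. Members were the rows of the deposited table of TPM, a read level scaled to transcript length and library, with a symbol made of Cyp2, a subfamily letter code and a number, without Cyp2c70. That gave 48 genes of 55487 counted gene IDs: 14 Cyp2c, 8 Cyp2d, 8 Cyp2j, 5 Cyp2b and 4 Cyp2a genes, and 1 each of Cyp2ab, Cyp2e, Cyp2f, Cyp2g, Cyp2r, Cyp2s, Cyp2t, Cyp2u and Cyp2w. The study addressed how loss of perilipin 2 (Plin2), a protein on the surface of lipid droplets, affects the fed and the fasted liver. All mice were females of the C57BL/6N strain aged 15 weeks, and the groups were Plin2+/+ fed, Plin2+/+ fasted, Plin2-null fed and Plin2-null fasted, with 5 libraries each. Fed mice had chow and fasted mice had gone 24 h without food. The labels of 10 libraries give the feeding state without a genotype. They were read as Plin2-/- because the design text names no other genotype, and they are called Plin2-null here. How the allele was made, whether the mice were littermates and whether each library is 1 mouse are not stated, and p-values therefore measure how these libraries spread.

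Cytochromes P450 are heme enzymes of the endoplasmic reticulum that insert an oxygen atom into their substrates, using electrons passed on by the reductase Por or by cytochrome b5. Members of the Cyp2 family oxidise drugs, small solvents, steroids, retinoids and polyunsaturated fatty acids, and the liver is their main site. Their genes lie in tandem clusters of close relatives, and many of them are known to respond to the xenobiotic receptors CAR and PXR, to growth hormone or to the position of the hepatocyte between portal and central vein. In mice several members are known for higher expression in females.

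Library totals ran from 25506471 to 65579038 counts. Plin2 itself ran from 196 to 319 CPM (counts scaled to library size) in Plin2+/+ fed and from 1092 to 1696 CPM in Plin2+/+ fasted libraries. In the libraries read as Plin2-null it ran from 15.3 to 32.1 CPM when fed and from 75.1 to 130.4 CPM when fasted, so that the genotypes did not overlap in either feeding state. Hepatocyte genes were abundant in every library, with Alb (serum albumin) at no fewer than 2186891 counts. The 5 markers of lung or kidney epithelium reached at most 3 counts in any library.

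Promoters of 6 members are shown first, because neighbours in the same cluster differed in their fasting response. Cyp2c38 and Cyp2c39 lie side by side on chromosome 19 next to Cyp2c29, and Cyp2b10 lies upstream of Cyp2b13 and Cyp2b9 on chromosome 7. The RefSeq table (GRCm38.p6) held a promoter for 40 of the 48 members. Each sequence is given 5′ to 3′ on the gene's strand, from 250 bases before the RefSeq start up to that start or to the first base that GENCODE annotates as an exon. Capitals mark matches on either strand to the motifs listed after the sequences.
Cyp2c29 (chr19:39286835-39287073, plus strand): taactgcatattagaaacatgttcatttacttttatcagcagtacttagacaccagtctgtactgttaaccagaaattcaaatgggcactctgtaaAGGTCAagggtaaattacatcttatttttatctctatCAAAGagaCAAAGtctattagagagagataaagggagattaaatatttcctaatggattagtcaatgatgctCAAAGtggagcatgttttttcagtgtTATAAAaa
Cyp2c38 (chr19:39463076-39463325, minus strand): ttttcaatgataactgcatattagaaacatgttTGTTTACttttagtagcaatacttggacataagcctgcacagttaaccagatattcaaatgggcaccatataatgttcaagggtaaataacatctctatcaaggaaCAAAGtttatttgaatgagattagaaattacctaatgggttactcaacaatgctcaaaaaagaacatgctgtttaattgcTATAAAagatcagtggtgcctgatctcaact
Cyp2c39 (chr19:39510572-39510821, plus strand): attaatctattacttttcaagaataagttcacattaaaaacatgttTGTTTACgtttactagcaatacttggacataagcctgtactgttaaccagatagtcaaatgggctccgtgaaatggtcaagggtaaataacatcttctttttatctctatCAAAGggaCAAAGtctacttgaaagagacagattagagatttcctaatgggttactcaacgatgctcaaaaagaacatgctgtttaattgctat
Cyp2b10 (chr7:25897408-25897619, plus strand): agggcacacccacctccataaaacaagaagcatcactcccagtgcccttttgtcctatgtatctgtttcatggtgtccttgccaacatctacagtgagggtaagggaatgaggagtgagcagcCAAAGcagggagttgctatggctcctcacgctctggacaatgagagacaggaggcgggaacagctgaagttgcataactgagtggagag
Cyp2b13 (chr7:26061245-26061494, plus strand): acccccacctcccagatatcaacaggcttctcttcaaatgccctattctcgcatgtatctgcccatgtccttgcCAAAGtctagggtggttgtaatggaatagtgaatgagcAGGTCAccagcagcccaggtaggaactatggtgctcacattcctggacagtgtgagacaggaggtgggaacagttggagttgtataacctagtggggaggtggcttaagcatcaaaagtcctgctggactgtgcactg
Cyp2b9 (chr7:26173159-26173408, plus strand): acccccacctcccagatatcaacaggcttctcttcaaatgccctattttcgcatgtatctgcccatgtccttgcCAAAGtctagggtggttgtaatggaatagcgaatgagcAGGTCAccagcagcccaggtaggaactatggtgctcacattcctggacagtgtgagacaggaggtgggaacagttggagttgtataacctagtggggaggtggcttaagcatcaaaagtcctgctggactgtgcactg

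Matches were searched on both strands in the 250 bases before the start, and no match in the sequences shown overlapped another. Among 32851 RefSeq windows of that length, TATAAA (core promoter element) was in 12.4%, and it was in 17 of the 40 members matched. CAAAG (HNF4 half-site) was in 48.6% of all windows and in 33 members. AGGTCA (nuclear receptor half-site) was in 14.0% of all windows and in 8 members. GTTAAT (HNF1 half-site) was in 6.43% of all windows and in 6 members. TGTTTAC (FOXA site) was in 3.17% of all windows and in 4 members (Cyp2ab1, Cyp2c38, Cyp2c39 and Cyp2j5). TTCNNNGAA (STAT5 site) was in 7.02% of all windows and in 2 members. TTATGTAA (D-box of PAR bZIP factors, 0.819% of all windows) and ATCGAT (CUX2 site, 0.728%) were in none of the 40. A match is a description of these letters and not a binding site. The windows of Cyp2b9 and Cyp2b13 were 99.2% identical, while either was 70.0% identical to that of Cyp2b10. Those of Cyp2c38 and Cyp2c39 were 71.0% identical. The RefSeq start of Cyp2c39 lies 40 bases upstream of its GENCODE start, and that of Cyp2c29 lies 17680 bases downstream of its GENCODE start, so these windows do not stand at the same place of each gene model.

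The family's make-up was described with summed TPM, which allows genes to be compared within a library. Summed over the members, Cyp2 transcripts took 1.89% of all TPM in Plin2+/+ fed, 1.72% in Plin2+/+ fasted, 1.99% in Plin2-null fed and 1.58% in Plin2-null fasted liver (group means). Cyp2e1 alone gave 31.0% of the family's TPM in Plin2+/+ fed and 58.9% in Plin2+/+ fasted liver. In Plin2-null liver its share was 30.9% fed and 58.4% fasted. The share of the Cyp2c subfamily went the other way, from 43.0% to 18.2% in Plin2+/+ and from 44.2% to 17.2% in Plin2-null liver. The Cyp2c sum was 8056 ± 724 TPM in Plin2+/+ fed and 3121 ± 498 in Plin2+/+ fasted liver, and 8820 ± 1401 in Plin2-null fed and 2722 ± 639 in Plin2-null fasted liver (mean ± SD, n = 5 each). No fasted library reached the Cyp2c sum of a fed one in either genotype. The sums are a description without a test, and they are less open than single genes to reads shared between close relatives.

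**Figure D1:**
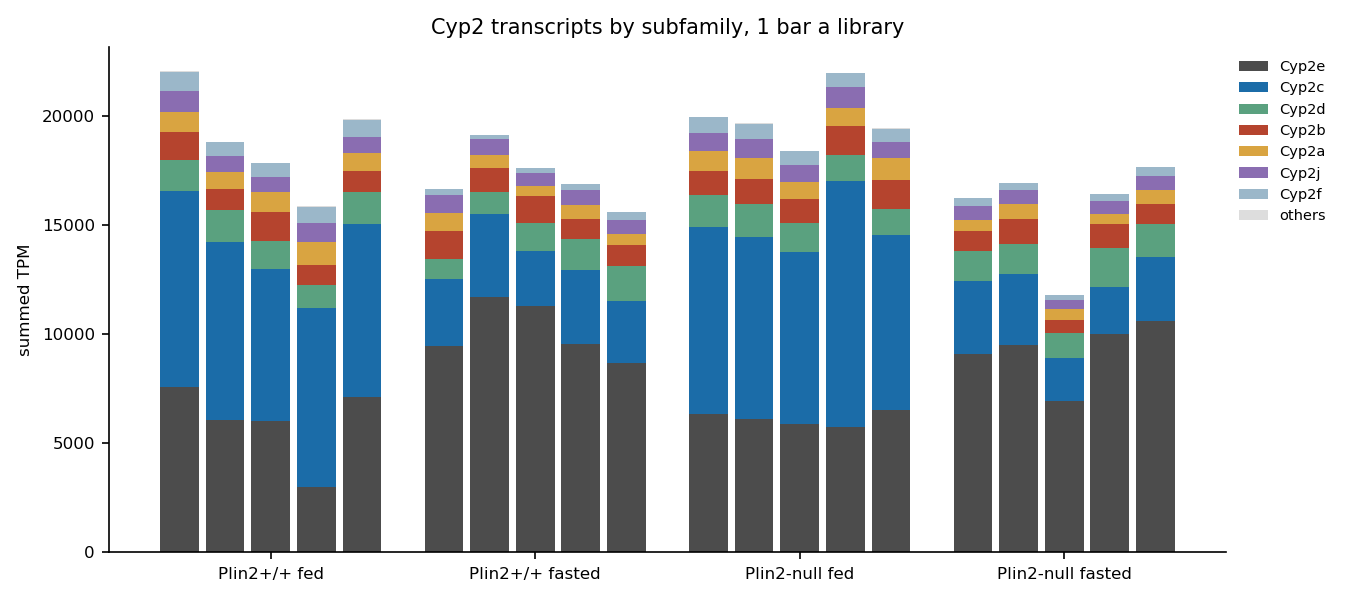
Summed TPM of the Cyp2 members in each of the 20 libraries (1 bar a library, y axis from 0), stacked by subfamily. Cyp2e1 (dark grey, lowest block) is taller and the Cyp2c block (blue) shorter in the fasted libraries of both genotypes, where the Cyp2c sum lies between 1932 and 3810 TPM against 6968 to 11283 TPM in the fed ones.

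The order of single members changed with feeding. Cyp2e1 was first in all groups and overlapped no other member. In both fed groups Cyp2c69 was second (1871 TPM in Plin2+/+, 2513 TPM in Plin2-null) and stood apart from the third, Cyp2c29 (1098 and 1140 TPM). From the third to the twelfth place, neighbours in the fed order overlapped. In Plin2+/+ fasted liver Cyp2b9 (757 TPM), Cyp2d26 (736 TPM) and Cyp2j5 (650.1 TPM) followed Cyp2e1, and in Plin2-null fasted liver Cyp2d26 (904 TPM), Cyp2b9 (678 TPM) and Cyp2j5 (560.2 TPM) did. These 3 overlapped each other in Plin2+/+ fasted liver. In Plin2-null fasted liver Cyp2b9 overlapped both others, while Cyp2d26 (lowest library 755 TPM) stood above Cyp2j5 (highest library 638 TPM). At the other end, 14 members had too few counts to be tested. Cyp2b19, Cyp2c65, Cyp2c66, Cyp2j7, Cyp2j11, Cyp2j12, Cyp2j13 and Cyp2w1 had 0 counts in all 20 libraries, which at 3 counts a library allows at most 0.118 CPM. Cyp2ab1, Cyp2b23, Cyp2d12, Cyp2d34, Cyp2j8 and Cyp2t4 had at most 48 counts in any library, and none of them passed 0.899 TPM.

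Fasting lowered more members than it raised, in both genotypes. Of the 34 members tested with edgeR's quasi-likelihood test, 4 were higher and 18 lower in fasted than in fed Plin2+/+ liver at a Benjamini-Hochberg adjusted p under 0.05. Among all 16312 genes tested, 20.9% were called higher and 21.7% lower. In Plin2-null liver 4 members were higher and 16 lower, against 18.0% and 18.1% of all genes. The median log2 fold change of the members tested was -0.76 in Plin2+/+ and -0.62 in Plin2-null liver, and that of all genes was -0.01 in both. Of the members, 3 were called higher in both genotypes (Cyp2b10, Cyp2c39 and Cyp2e1) and 16 lower in both, which together make 19 of the 22 called in Plin2+/+ and 19 of the 20 called in Plin2-null liver. No member was called in opposite directions. In CPM the fasted and fed libraries did not overlap for 3 members that were higher and 12 that were lower in Plin2+/+ liver (13.2% and 13.5% of all genes), and for 3 and 13 in Plin2-null liver (12.6% and 11.8%).

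The split between higher and lower depended on the scaling in Plin2-null liver. Scaling by library size alone gave 2 members higher and 18 lower there, limma on log2(TPM + 1) gave 2 and 22, and on log2(TPM + 0.1) 2 and 21. The calls over all genes moved in the same direction, from 2942 higher and 2954 lower to 1376 and 4243, 1014 and 4567, and 1008 and 4562 under the same settings. In Plin2+/+ liver the calls over all genes moved too, from 3416 higher and 3541 lower to 1854 and 4173 with library size alone. On log2(TPM + 1) they were 1567 and 3623 there. Scaling by library size alone moved the median of all genes by -0.16 in Plin2+/+ and by -0.21 in Plin2-null liver, so the fold changes below are relative to the trimmed mean of M values. Livers were measured in bulk, where fewer cells of a type and less RNA per cell cannot be told apart.

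**Figure D2:**
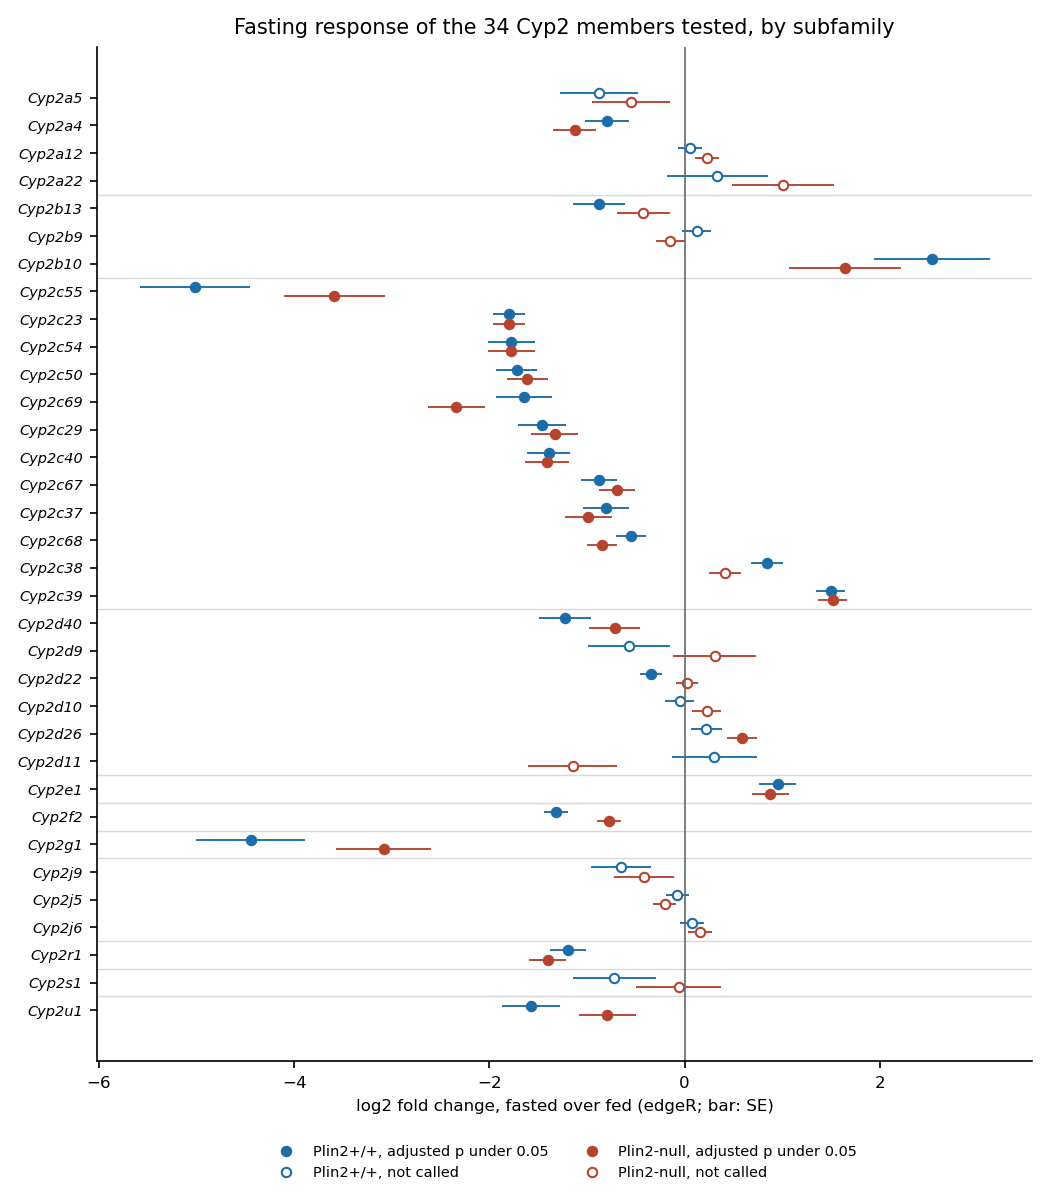
Log2 fold change of fasted over fed liver for the 34 members tested, grouped by subfamily (x axis; bars are standard errors from edgeR; blue Plin2+/+, red Plin2-null; filled points passed an adjusted p of 0.05). Most Cyp2c members lie left of 0 in both genotypes, with Cyp2c55 at -5.02 and -3.59, while Cyp2b10, Cyp2c39 and Cyp2e1 lie right of it.

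Among the members that rose, Cyp2e1 (chr7:140763739-140774987 in GRCm38) had by far the highest level. It oxidises ethanol, acetone and other small molecules. Its level was 7568, 6051, 6015, 2976 and 7123 TPM in the Plin2+/+ fed and 9475, 11687, 11303, 9569 and 8695 TPM in the Plin2+/+ fasted libraries. In Plin2-null liver it was 6347, 6117, 5869, 5756 and 6549 TPM fed and 9101, 9519, 6962, 9989 and 10583 TPM fasted. All fasted libraries were above all fed ones of the same genotype, and the lowest value came from Plin2+/+ fed replicate 4. On the log2 scale the fold change was 0.95 ± 0.19 in Plin2+/+ (SE; adjusted p = 3.6e-04) and 0.88 ± 0.19 in Plin2-null liver (adjusted p = 0.0010), and without Plin2+/+ fed replicate 4 the first was 0.77.

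Cyp2b10 (chr7:25897620-25926624), the classical target of CAR and the enzyme induced by phenobarbital, varied widely from library to library. It was at 22.0, 24.4, 66.7, 73.8 and 25.8 TPM in Plin2+/+ fed and at 93.7, 227, 513, 47.5 and 194 TPM in Plin2+/+ fasted libraries. In Plin2-null liver it was at 27.4, 37.1, 42.8, 48.2 and 35.8 TPM fed and at 116, 29.97, 86.6, 108 and 154 TPM fasted. The groups overlapped in both genotypes, since 1 fasted library of each lay inside the fed range, and Plin2+/+ fasted replicate 3 lay far above all others. This gave a log2 fold change of 2.53 ± 0.59 (adjusted p = 0.0023) in Plin2+/+ and 1.65 ± 0.57 (adjusted p = 0.033) in Plin2-null liver. Without Plin2+/+ fasted replicate 3 the Plin2+/+ value was 1.87. The call in Plin2-null liver was lost when 1 library was left out, for fed replicates 1, 2, 3 and 5 and fasted replicates 1, 3 and 5 (adjusted p up to 0.069), and under limma voom, library size scaling, no filter and both TPM fits.

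Cyp2c39 (chr19:39510862-39568529), an arachidonic acid epoxygenase that also acts on retinoic acid, rose by nearly the same amount in both genotypes. It was at 20.3, 12.0, 19.0, 14.3 and 14.7 TPM in Plin2+/+ fed and at 44.4, 41.9, 43.8, 34.5 and 37.6 TPM in Plin2+/+ fasted libraries. For Plin2-null liver the values were 14.6, 15.4, 13.4, 17.5 and 15.4 TPM fed and at 41.1, 39.0, 26.3, 32.4 and 39.4 TPM fasted. Fed and fasted libraries stood clear of each other in both genotypes. The log2 fold change was 1.497 ± 0.15 (adjusted p = 5.5e-08) and 1.52 ± 0.15 (adjusted p = 6.6e-08).

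Its neighbour Cyp2c38 (chr19:39389556-39463075), a close relative that is also an arachidonic acid epoxygenase, was called higher in Plin2+/+ liver. It was at 152, 111, 136, 105 and 145 TPM in Plin2+/+ fed and at 216, 211, 165, 231 and 216 TPM in Plin2+/+ fasted libraries. The Plin2-null libraries were at 105, 79.2, 136, 172 and 129.8 TPM fed and at 132, 131, 92.8, 183 and 148 TPM fasted. The Plin2+/+ groups did not overlap, whereas the Plin2-null groups overlapped widely. On the log2 scale the fold change was 0.84 ± 0.16 (adjusted p = 2.8e-04) in Plin2+/+ and 0.41 ± 0.16 (adjusted p = 0.054) in Plin2-null liver, where it was called by limma voom (adjusted p = 0.034) and without Plin2-null fed replicate 4 (0.54, adjusted p = 0.012). The difference of the responses was -0.43 ± 0.23 and was not called (adjusted p = 0.40). In the promoters printed above, Cyp2c38 holds TGTTTAC at 217 to 211 and Cyp2c39 at 204 to 198 bases before the RefSeq start. The same letters are in the windows of Cyp2ab1 and Cyp2j5, and their part in the responses was not tested.

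Cyp2d26 (chr15:82790101-82794294), among the most abundant members in fasted liver, was called higher in Plin2-null liver. Its levels were 724, 823, 713, 518 and 739.7 TPM in Plin2+/+ fed and 564, 597, 707, 884 and 926 TPM in Plin2+/+ fasted libraries. In Plin2-null liver they were 822, 823, 737, 666 and 643 TPM fed and 824, 946, 755, 1106 and 887 TPM fasted. Its fed and fasted TPM ranges overlapped in both genotypes, whereas in CPM the Plin2-null groups did not overlap. This gave a log2 fold change of 0.22 ± 0.16 (adjusted p = 0.27) in Plin2+/+ and 0.59 ± 0.16 (adjusted p = 0.0055) in Plin2-null liver. That call was lost under library size scaling (0.36, adjusted p = 0.070) and on log2(TPM + 1) (0.29, adjusted p = 0.16).

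**Figure D3:**
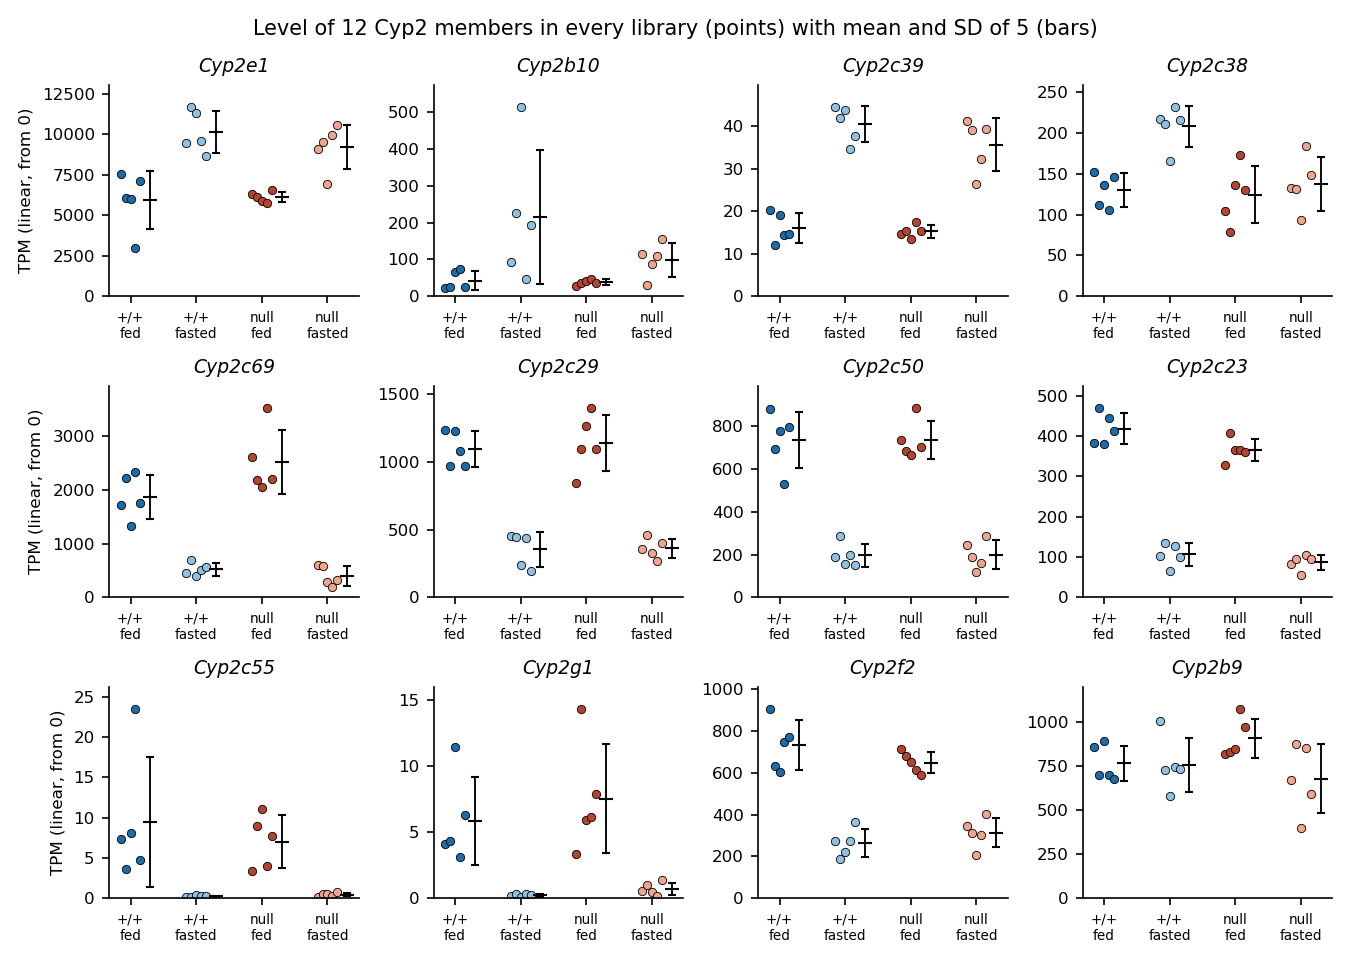
TPM of 12 members in every library (points, linear axes from 0; dark points fed, light points fasted, blue Plin2+/+, red Plin2-null), with the mean and SD of 5 libraries beside each group. Cyp2e1 and Cyp2c39 separate fed from fasted liver upward, Cyp2c69, Cyp2c29, Cyp2c50, Cyp2c23, Cyp2c55, Cyp2g1 and Cyp2f2 downward, and Cyp2b9 overlaps throughout.

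The Cyp2c subfamily held most of the members that fell. Of its 12 members tested, 10 were lower in both genotypes. Of these 12, 11 lie in 1 cluster on chromosome 19 that runs from the start of Cyp2c55 (39007019) to the end of Cyp2c50 (40113950, GRCm38), with Cyp2c38 and Cyp2c39 between Cyp2c29 and Cyp2c67. Cyp2c65 and Cyp2c66, at 0 counts throughout, lie between Cyp2c55 and Cyp2c29. The 12th, Cyp2c23, lies outside the cluster on the same chromosome (chr19:44005022-44029208).

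**Figure D4:**
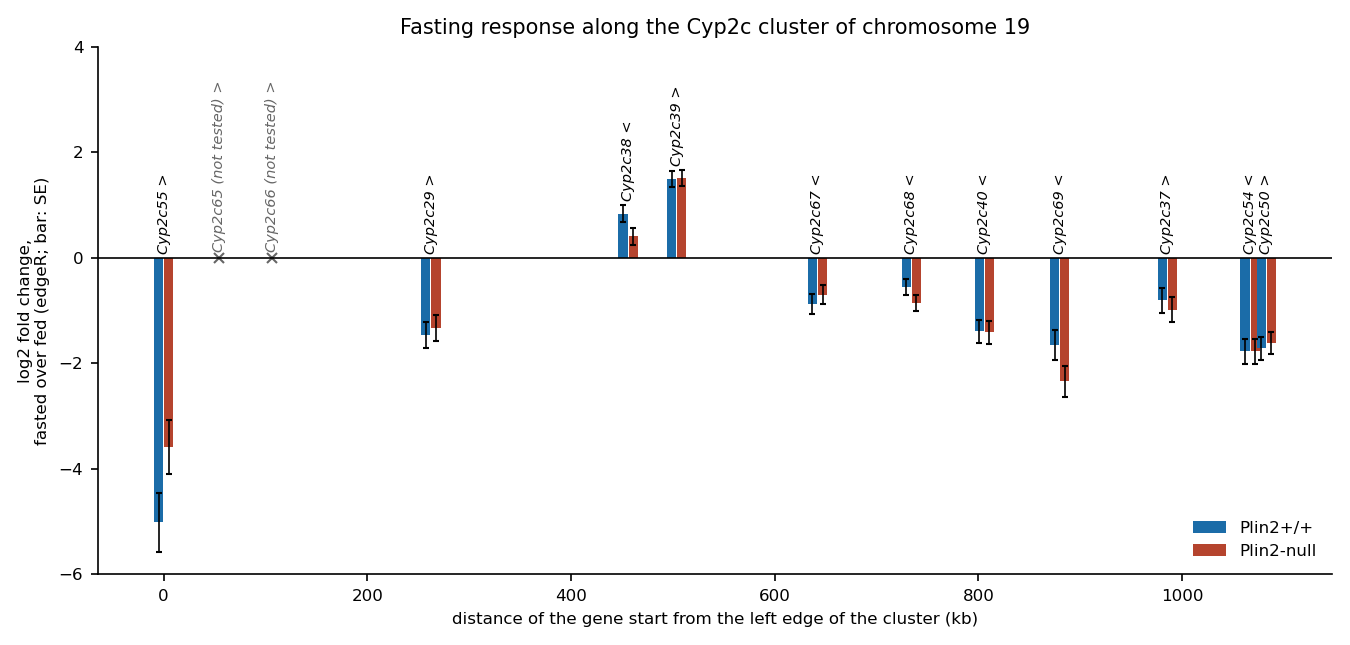
Log2 fold change of fasted over fed liver (bars; error bars are standard errors from edgeR) for the Cyp2c genes of the chromosome 19 cluster, against the distance of the gene start from the left edge of the cluster in kb. Arrowheads give the strand, crosses mark Cyp2c65 and Cyp2c66 (not tested), blue is Plin2+/+ and red Plin2-null. The neighbours Cyp2c38 and Cyp2c39 point up, with Cyp2c39 at 1.497 and 1.52, and the other tested genes point down on both sides of them.

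Cyp2c69, the second most abundant member when fed and known as female-biased, was at 1719, 2225, 1330.5, 2334 and 1748 TPM in Plin2+/+ fed and at 446, 703, 389, 516 and 566 TPM in Plin2+/+ fasted libraries. Plin2-null libraries held it at 2611, 2181, 2058, 3516 and 2197 TPM fed and at 608, 578, 287, 194 and 323 TPM fasted. No fasted library reached a fed one. The log2 fold change was -1.65 ± 0.29 (adjusted p = 1.1e-04) in Plin2+/+ and -2.34 ± 0.29 (adjusted p = 3.7e-06) in Plin2-null liver, and their difference of -0.69 ± 0.40 was not called (adjusted p = 0.43). Reads of this gene are uncertain, since 54.8% of the 50-base words of its longest transcript occur in transcripts of other genes, most of them in Cyp2c40.

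Cyp2c29, an epoxygenase of arachidonic and linoleic acid, was at 1235, 969, 1232, 1082 and 973 TPM in Plin2+/+ fed and at 453, 444, 235, 439 and 197 TPM in Plin2+/+ fasted libraries. In Plin2-null liver it was at 844, 1094, 1267, 1398 and 1099 TPM fed and at 357, 458, 326, 266 and 400.4 TPM fasted. Every fasted value was below every fed one. On the log2 scale the fold change was -1.46 ± 0.24 (adjusted p = 5.9e-05) and -1.33 ± 0.24 (adjusted p = 2.0e-04), and 1.30% of its words occur elsewhere.

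Cyp2c50 and Cyp2c54, adjacent epoxygenases on opposite strands at the right end of the cluster, fell to a similar extent. Cyp2c50 was at 884, 693, 779.9, 532 and 795 TPM in Plin2+/+ fed and at 189, 285, 156, 197 and 153 TPM in Plin2+/+ fasted libraries. In Plin2-null liver Cyp2c50 was at 737, 686, 666, 885 and 704 TPM fed and at 243, 188, 120.4, 159 and 289 TPM fasted. The fasted libraries were all below the fed ones, with log2 fold changes of -1.72 ± 0.21 (adjusted p = 1.4e-06) and -1.61 ± 0.21 (adjusted p = 4.0e-06). Cyp2c54 was at 690.5, 540.1, 555, 349 and 574 TPM in Plin2+/+ fed and at 109, 192, 147, 122 and 119.8 TPM in Plin2+/+ fasted libraries. In Plin2-null liver Cyp2c54 was at 560.4, 557, 489, 736 and 512 TPM fed and at 197, 139, 67.8, 104 and 189 TPM fasted. These ranges were apart as well, with log2 fold changes of -1.78 ± 0.24 (adjusted p = 6.4e-06) and -1.77 ± 0.24 (adjusted p = 8.5e-06). Cyp2c50 shares 16.6% of its words with other genes and Cyp2c54 25.7%, with 17.5% of the latter's words in Cyp2c50. Counts may therefore be split among them.

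Cyp2c23, an arachidonic acid epoxygenase, had the smallest p of all members in both fasting comparisons. It was at 384, 469, 380.2, 445 and 411 TPM in Plin2+/+ fed and at 102, 135, 64.9, 128 and 101 TPM in Plin2+/+ fasted libraries. For Plin2-null liver the values were 329, 406, 365, 365 and 361 TPM fed and at 83.5, 95.4, 56.2, 105 and 95.1 TPM fasted. The groups were far apart, and the log2 fold change was -1.80 ± 0.16 in both genotypes (adjusted p = 1.8e-08 and 2.5e-08). None of its 50-base words occur in another gene's transcripts.

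Cyp2c55, which hydroxylates arachidonic acid and is known as inducible by CAR and PXR ligands, had the steepest fall of the family from a low level. It was at 7.42, 3.60, 8.14, 23.5 and 4.73 TPM in Plin2+/+ fed and at 0.189, 0.172, 0.388, 0.287 and 0.277 TPM in Plin2+/+ fasted libraries. The Plin2-null libraries were at 3.39, 8.96, 11.0, 4.07 and 7.72 TPM fed and at 0.219, 0.475, 0.480, 0.337 and 0.836 TPM fasted. Fed replicate 4 of Plin2+/+ was high, and no fasted library of either genotype came near a fed one. This gave a log2 fold change of -5.02 ± 0.56 (adjusted p = 9.2e-07) in Plin2+/+ and -3.59 ± 0.51 (adjusted p = 2.2e-05) in Plin2-null liver. Without Plin2+/+ fed replicate 4 the Plin2+/+ value was -4.40. The difference between the genotypes of 1.43 ± 0.77 was not called (adjusted p = 0.41).

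The other Cyp2c members that fell were Cyp2c37, Cyp2c40, Cyp2c67 and Cyp2c68, with log2 fold changes from -1.39 to -0.55 in Plin2+/+ and from -1.41 to -0.70 in Plin2-null liver. Cyp2c68, the fourth most abundant member over all libraries, was at 1139.6, 944, 753, 1140.2 and 988 TPM in Plin2+/+ fed and at 632, 688, 485, 647 and 535 TPM in Plin2+/+ fasted libraries. Plin2-null libraries held it at 907, 964, 1000.5, 1366 and 938 TPM fed and at 538, 523, 374, 412 and 475 TPM fasted. The TPM ranges did not overlap, and the log2 fold change was -0.55 ± 0.15 (adjusted p = 0.0059) and -0.85 ± 0.15 (adjusted p = 1.7e-04). Cyp2c40 shares 72.1% of its words with other genes, Cyp2c67 52.8%, Cyp2c68 43.3% and Cyp2c37 30.1%, so counts may be split among them.

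Outside the Cyp2c subfamily, Cyp2g1 (chr7:26808892-26821205), a steroid hydroxylase known from olfactory mucosa, fell most. It was at 4.10, 4.29, 11.4, 3.14 and 6.25 TPM in Plin2+/+ fed and at 0.146, 0.320, 0.120, 0.356 and 0.258 TPM in Plin2+/+ fasted libraries. In Plin2-null liver it was at 3.35, 14.3, 5.88, 6.15 and 7.85 TPM fed and at 0.543, 0.973, 0.476, 0.183 and 1.38 TPM fasted. The fed and fasted libraries did not overlap, and 4 of the 5 Plin2-null fasted libraries were above all Plin2+/+ fasted ones. The log2 fold change was -4.45 ± 0.56 (adjusted p = 3.1e-06) in Plin2+/+ and -3.08 ± 0.49 (adjusted p = 6.0e-05) in Plin2-null liver. The difference of the responses, 1.36 ± 0.74, was not called (adjusted p = 0.41).

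Cyp2f2 (chr7:27119909-27133660), known from club cells of the lung and as a periportal gene of liver, was at 905, 634, 602, 746 and 773 TPM in Plin2+/+ fed and at 276, 187, 221, 275 and 367 TPM in Plin2+/+ fasted libraries. For Plin2-null liver the values were 714, 679, 654, 612 and 588 TPM fed and at 346, 314, 209, 301 and 404 TPM fasted. All fasted libraries lay below all fed ones. On the log2 scale the fold change was -1.32 ± 0.12 (adjusted p = 2.8e-08) in Plin2+/+ and -0.77 ± 0.12 (adjusted p = 3.6e-05) in Plin2-null liver. The difference of 0.55 ± 0.17 had the smallest p of the members in the interaction (unadjusted p = 0.0042) and was not called (adjusted p = 0.24).

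Of the remaining members called lower in both genotypes, Cyp2r1, the vitamin D hydroxylase of the liver, had log2 fold changes of -1.20 ± 0.19 (adjusted p = 2.5e-05) in Plin2+/+ and -1.40 ± 0.19 (adjusted p = 5.3e-06) in Plin2-null liver. Its TPM ran from 8.80 to 14.9 in fed and from 2.56 to 5.42 in fasted libraries of the 2 genotypes. Cyp2a4, a female-biased steroid hydroxylase that shares 36.1% of its words with Cyp2a5, had log2 fold changes of -0.80 ± 0.22 (adjusted p = 0.0066) and -1.13 ± 0.22 (adjusted p = 5.2e-04). The long-chain fatty acid hydroxylase Cyp2u1 had -1.57 ± 0.30 (adjusted p = 2.4e-04) and -0.79 ± 0.29 (adjusted p = 0.037), and Cyp2d40 had -1.22 ± 0.27 (adjusted p = 9.9e-04) and -0.72 ± 0.26 (adjusted p = 0.038). In Plin2-null liver the call of Cyp2u1 was lost without fed replicate 1 or 5 or fasted replicate 1, 2, 4 or 5 (adjusted p up to 0.18). That of Cyp2d40 was lost without fed replicate 1, 2 or 3 or fasted replicate 1, 2, 3 or 4 (adjusted p up to 0.099).

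Cyp2b13 and Cyp2d22 were called lower in Plin2+/+ liver, with log2 fold changes of -0.88 ± 0.27 (adjusted p = 0.013) and -0.35 ± 0.11 (adjusted p = 0.017). In Plin2-null liver their values were -0.42 ± 0.27 (adjusted p = 0.23) and 0.02 ± 0.11 (adjusted p = 0.90). The differences of the responses were not called (adjusted p = 0.585 for Cyp2b13 and 0.32 for Cyp2d22). Cyp2d22 was at 117, 97.8, 111, 108 and 105 TPM in Plin2+/+ fed and at 69.8, 67.6, 83.2, 71.5 and 86.2 TPM in Plin2+/+ fasted libraries. In Plin2-null liver Cyp2d22 was at 104, 122, 100.2, 91.6 and 101 TPM fed and at 73.3, 76.6, 69.4, 101 and 112 TPM fasted. In TPM the groups were apart in Plin2+/+ and overlapped in Plin2-null liver. The call of Cyp2d22 was lost without Plin2+/+ fed replicate 3 or without Plin2+/+ fasted replicate 1 (adjusted p = 0.054 in either case).

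Of the members tested, 11 passed in neither genotype, among them Cyp2b9, whose promoter is nearly that of Cyp2b13. Cyp2b9, female-biased and the third most abundant member over all libraries, was at 855, 699.7, 892, 698 and 679 TPM in Plin2+/+ fed and at 1004, 727, 578, 744 and 730.3 TPM in Plin2+/+ fasted libraries. The Plin2-null libraries were at 816, 832, 848, 1072 and 972 TPM fed and at 671, 876, 401, 854 and 590.2 TPM fasted. Fed and fasted ranges overlapped, and the log2 fold change was 0.12 ± 0.15 (adjusted p = 0.52) and -0.15 ± 0.15 (adjusted p = 0.46). On log2(TPM + 1) the value in Plin2-null liver was -0.47 (adjusted p = 0.049). The others were Cyp2a5, Cyp2a12, Cyp2a22, Cyp2d9, Cyp2d10, Cyp2d11, Cyp2j5, Cyp2j6, Cyp2j9 and Cyp2s1. None of the 3 Cyp2j members tested passed in either genotype, with values from -0.65 to 0.08 in Plin2+/+ and from -0.41 to 0.16 in Plin2-null liver.

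Genotype differences were looked for within each feeding state, averaged over both, and in the response to fasting. In fed liver edgeR called 0 of the 34 members tested, against 0.0123% of all genes higher and 0.00613% lower in Plin2-null liver. No member's genotypes were free of overlap in CPM there, against 0.423% of all genes higher and 0.454% lower without overlap. The smallest adjusted p among members was 0.97, and 2 of the 34 members had an unadjusted p under 0.05, as had 694 of all 16312 genes. In fasted liver 0 members were called, against 1.51% of all genes higher and 1.73% lower, with 6 of 34 members and 3962 of 16312 genes at an unadjusted p under 0.05. In the interaction 0 members were called and 0.0% of all genes in either direction, with 3 of 34 members and 2250 of 16312 genes at an unadjusted p under 0.05. In the genotype difference averaged over feeding 0 members were called (0.0674% of all genes higher and 0.0429% lower), with 4 of 34 members and 2446 of 16312 genes at an unadjusted p under 0.05. DESeq2 called 1 member, in fasted liver, and 0 in the other 3 comparisons, and limma voom called 0 in all 4. Over all genes in fasted liver, DESeq2 called 621 higher and 809 lower, where edgeR called 246 and 282.

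That member was Cyp2c38, whose levels are given above. In CPM its Plin2-null fasted libraries were all below the Plin2+/+ fasted ones, the only member whose genotypes did not overlap in fasted liver (1.87% of all genes did not overlap and were higher, and 2.21% were lower). In TPM the ranges overlapped, since Plin2+/+ fasted libraries went down to 165 TPM and Plin2-null fasted ones up to 183 TPM. The log2 difference of Plin2-null minus Plin2+/+ was -0.59 ± 0.16 in fasted liver, with an adjusted p of 0.0502 in edgeR. It was called by DESeq2 (adjusted p = 0.013), with RLE size factors (0.045), with the stricter filter (0.048) and with only the groups compared (0.045). It was also called when 1 library was left out, which held for replicate 4 of Plin2+/+ fed, replicate 5 of Plin2+/+ fasted, replicates 2 and 4 of Plin2-null fed, and replicate 4 of Plin2-null fasted mice (adjusted p from 0.026). It was not called in the other settings, where the adjusted p ran up to 0.17. In fed liver the difference was -0.16 ± 0.16, and averaged over feeding it was -0.37 ± 0.11 (adjusted p = 0.18).

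**Figure D5:**
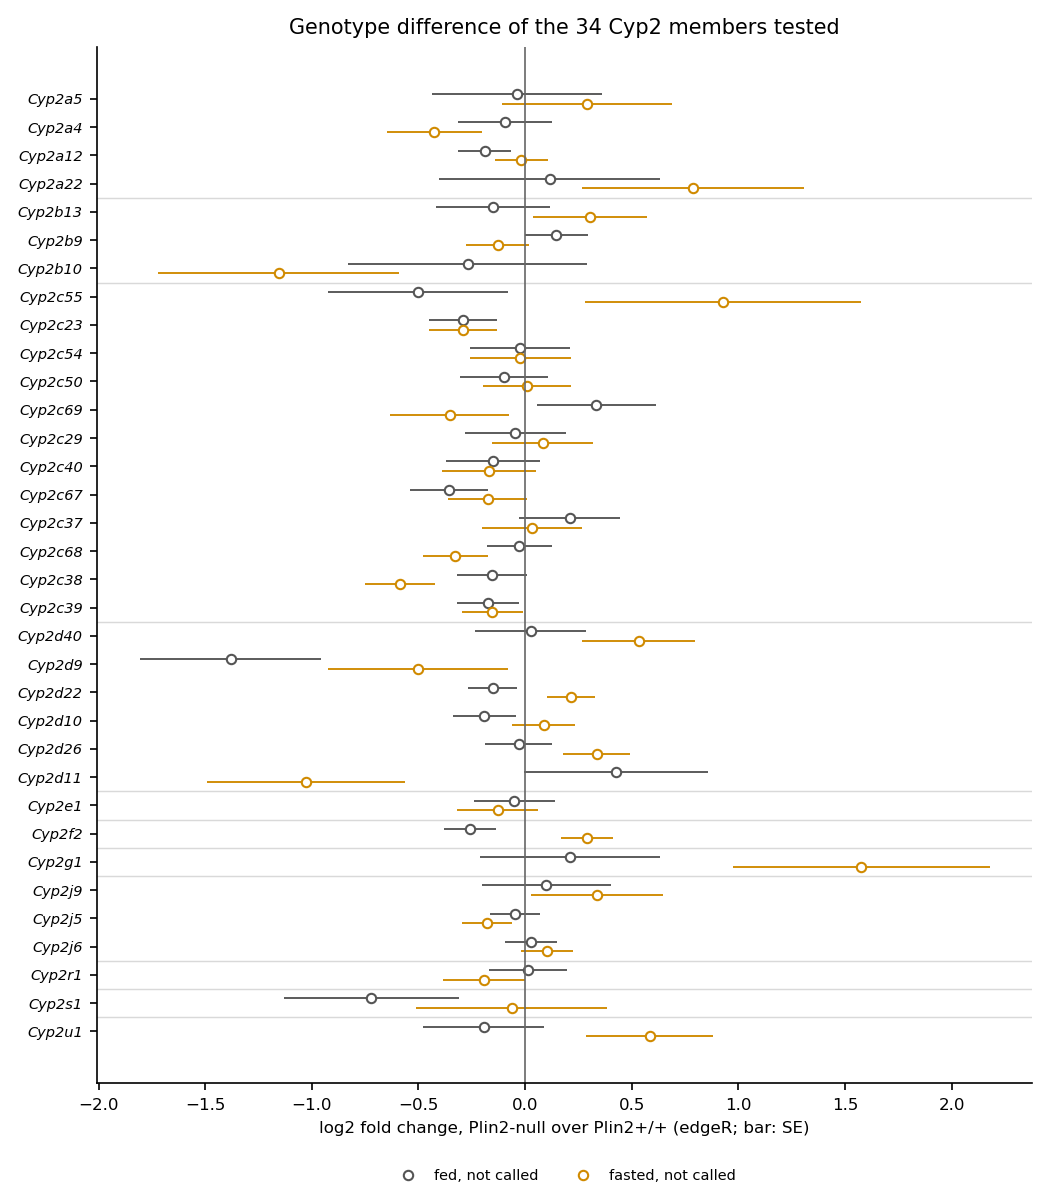
Log2 difference of Plin2-null minus Plin2+/+ liver for the 34 members tested (x axis; bars are standard errors from edgeR; grey fed, orange fasted; open points did not pass an adjusted p of 0.05). No point is filled, and Cyp2c38 in fasted liver, at -0.59, came closest with an adjusted p of 0.0502.

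Cyp2d9, a steroid hydroxylase known as male-biased, had the smallest p in fed liver. It was at 60.9, 19.8, 16.3, 10.0 and 40.2 TPM in Plin2+/+ fed and at 11.4, 16.6, 12.5, 9.57 and 9.28 TPM in Plin2-null fed libraries. The Plin2+/+ values spread widely and overlapped the Plin2-null ones, and the log2 difference was -1.38 ± 0.43 (unadjusted p = 0.0046, adjusted p = 0.97). In fasted liver Cyp2d9 was at 7.15, 16.4, 22.9, 11.9 and 27.9 TPM in Plin2+/+ and at 11.4, 5.90, 10.7, 15.7 and 16.8 TPM in Plin2-null libraries, which also overlapped. The difference averaged over feeding was -0.94 ± 0.30 (adjusted p = 0.20).

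In fasted liver Cyp2g1 had a log2 difference of 1.58 ± 0.60 (adjusted p = 0.12) and Cyp2f2 of 0.29 ± 0.12 (adjusted p = 0.15). Cyp2f2 was called there without Plin2+/+ fasted replicate 5 (0.38, adjusted p = 0.047). In fed liver the difference of Cyp2f2 had the opposite sign, at -0.26, and averaged over feeding it was 0.02. Neither was called. Next to Cyp2f2 in the interaction came Cyp2d22 (0.37 ± 0.16, adjusted p = 0.32) and Cyp2d11 (-1.45 ± 0.63, adjusted p = 0.33). Cyp2d11 was at 1.84, 0.556, 1.67, 0.984 and 0.924 TPM in Plin2+/+ fed and at 1.26, 0.887, 3.00, 0.361 and 0.999 TPM in Plin2+/+ fasted libraries. In the Plin2-null groups Cyp2d11 was at 2.19, 1.78, 1.27, 0.684 and 2.67 TPM fed and at 0.458, 0.716, 0.401, 0.563 and 1.05 TPM fasted. It was thus low throughout, with overlap between all groups compared.

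Cyp2c67 was at 655, 427, 321, 464 and 529.6 TPM in Plin2+/+ fed and at 496, 501, 302, 376 and 307 TPM in Plin2-null fed libraries. In fasted liver Cyp2c67 was at 236, 234, 196, 260.0 and 224 TPM in Plin2+/+ and at 272, 241, 112, 172 and 211 TPM in Plin2-null libraries. The genotypes overlapped in both feeding states, and in fed liver the log2 difference was -0.36 ± 0.18 (unadjusted p = 0.066). Averaged over feeding Cyp2c23 had a difference of -0.29 ± 0.11 (adjusted p = 0.24). None of these genotype differences passed the test over all libraries.

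Genes that work with the family, or are known to control it, were taken from lists of known function. Beside the counts of this and the next paragraphs stand 20.9% of all genes higher and 21.7% lower with fasting in Plin2+/+ liver. In Plin2-null liver the shares were 18.0% and 18.1%, and between the genotypes in fasted liver 1.51% higher and 1.73% lower. Of 6 electron-transfer partners, 1 rose and 3 fell in Plin2+/+ and 1 rose and 2 fell in Plin2-null liver (median log2 fold change -0.32 and -0.18, all genes -0.01). Por, the reductase that feeds all microsomal P450 enzymes, rose by 2.39 ± 0.22 (adjusted p = 3.2e-08) and 2.53 ± 0.22 (adjusted p = 2.1e-08) on the log2 scale. The cytochrome b5 reductase Cyb5r3 had -2.08 ± 0.16 (adjusted p = 2.6e-09) and -1.52 ± 0.16 (adjusted p = 1.7e-07). The outer-membrane cytochrome Cyb5b had -1.81 ± 0.15 and -1.77 ± 0.15 (adjusted p = 5.8e-09 and 1.0e-08). Of 12 genes of heme synthesis and breakdown, 2 rose and 3 fell in Plin2+/+ and 4 rose and 2 fell in Plin2-null liver (medians -0.01 and 0.07). Ppox, a late enzyme of heme synthesis, had -1.004 ± 0.12 (adjusted p = 9.4e-07) and -0.81 ± 0.12 (adjusted p = 1.8e-05), and Alad, an early enzyme of it, was higher in Plin2-null than in Plin2+/+ fasted liver (0.90 ± 0.24, adjusted p = 0.046).

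Of 23 transcription factors and cofactors known to act on Cyp2 genes, 7 rose and 4 fell in Plin2+/+ and 8 rose and 4 fell in Plin2-null liver (medians 0.17 and 0.29). Nr1i3, named after its values were seen because it encodes CAR, had 0.79 ± 0.18 (adjusted p = 0.0016) and 0.64 ± 0.18 (adjusted p = 0.0089). The corepressor Nr0b2 had -1.60 ± 0.25 (adjusted p = 2.8e-05) and -0.64 ± 0.24 (adjusted p = 0.046), and the coactivator Ppargc1a had 2.58 ± 0.40 (adjusted p = 4.4e-05) and 1.19 ± 0.38 (adjusted p = 0.021). Ppargc1a was also lower in Plin2-null than in Plin2+/+ fasted liver (-1.52 ± 0.38, adjusted p = 0.042), the 1 gene of this list called there. Of 10 genes of the growth hormone axis, 0 rose and 4 fell in Plin2+/+ and 0 rose and 6 fell in Plin2-null liver (medians -0.52 and -0.55). The growth hormone receptor Ghr had -1.68 ± 0.16 (adjusted p = 4.0e-08) and -1.63 ± 0.16 (adjusted p = 7.8e-08), and its target Igf1 had -1.21 ± 0.16 and -1.09 ± 0.16 (adjusted p = 3.3e-06 and 1.5e-05).

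Of 10 CAR and PXR targets outside the family, 3 rose and 5 fell in Plin2+/+ and 3 rose and 3 fell in Plin2-null liver (medians -0.46 and -0.32). The glutathione transferase Gstm3 had -3.92 ± 0.39 (adjusted p = 3.0e-07) and -3.16 ± 0.37 (adjusted p = 3.1e-06), whereas the transporter Abcc3 had 0.59 ± 0.13 (adjusted p = 0.0010) and 0.83 ± 0.13 (adjusted p = 3.9e-05). Of 7 female-biased Cyp2 members, 2 rose and 4 fell in Plin2+/+ and 1 rose and 3 fell in Plin2-null liver (medians -0.80 and -0.42), and their values are among those above.

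Zonation genes outside the family went both ways. Of 16 pericentral genes, 2 rose and 6 fell in Plin2+/+ and 1 rose and 5 fell in Plin2-null liver (medians -0.02 and -0.03). Cyp1a2, a pericentral P450 of another family, had -2.62 ± 0.24 (adjusted p = 4.1e-08) and -1.79 ± 0.24 (adjusted p = 5.5e-06), and Oat had 1.17 ± 0.17 (adjusted p = 1.1e-05) and 1.09 ± 0.17 (adjusted p = 3.3e-05). Of 14 periportal genes, 5 rose and 4 fell in Plin2+/+ and 4 rose and 5 fell in Plin2-null liver (medians -0.01 and 0.15). The urea cycle enzyme Arg1 had 1.31 ± 0.19 (adjusted p = 1.2e-05) and 1.28 ± 0.19 (adjusted p = 2.1e-05). Aldh1b1 went the other way, with -2.18 ± 0.30 (adjusted p = 1.2e-05) and -1.25 ± 0.29 (adjusted p = 0.0025). Of both lists, 3 genes were called between the genotypes in fasted liver: Cyp1a2 (0.93 ± 0.23, adjusted p = 0.037), Slc1a2 (-0.59 ± 0.15, adjusted p = 0.041) and Cps1 (-0.97 ± 0.23, adjusted p = 0.032).

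Markers of liver cell types were counted as well, beside 20.9% of all genes called higher and 21.7% lower with fasting in Plin2+/+ liver. In Plin2-null liver the shares of all genes were 18.0% and 18.1%. Of 8 hepatocyte markers, 3 rose and 2 fell in Plin2+/+ and 1 rose and 2 fell in Plin2-null liver, and their summed level overlapped between fed and fasted libraries of each genotype (94080.5 to 145305 and 106426 to 154812 CPM in Plin2+/+; 89288 to 109603 and 79400 to 114133 CPM in Plin2-null). Of 8 Kupffer cell markers, 5 fell in Plin2+/+ and 4 in Plin2-null liver. Their summed level ran from 360.3 to 485 CPM fed and from 194 to 345 CPM fasted in Plin2+/+, and from 292 to 713 CPM and from 288 to 363 CPM in Plin2-null liver. Of 5 cholangiocyte markers tested of 6, 3 fell in Plin2+/+ and 1 in Plin2-null liver, with summed levels from 33.1 to 51.1 CPM fed and from 12.2 to 23.1 CPM fasted in Plin2+/+, and from 29.9 to 48.1 and from 17.0 to 25.6 CPM in Plin2-null liver. All 4 B cell markers fell in Plin2+/+ and 0 in Plin2-null liver, at summed levels of at most 5.10 CPM. Of 8 stellate cell markers, 4 fell in each genotype and 1 rose in Plin2-null liver, and of 8 sinusoidal endothelial markers 2 rose and 2 fell in each. Between the genotypes in fasted liver, Des (stellate cell, 0.67 ± 0.17, adjusted p = 0.041) and Ms4a1 (B cell, 1.44 ± 0.38, adjusted p = 0.044) were higher in Plin2-null libraries. The part of these shifts in the results on Cyp2 members was not tested.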

How the data were processed

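Strand-specific mRNA libraries came from total RNA of whole mouse liver, as the labels' protocols state. The counts per gene deposited by the authors were whole numbers and not normalized. The submitters' processing notes name HISAT2 1.2.1, featureCounts 1.4.6-p1 and the build GRCh38, although gene IDs are mouse IDs. The deposited TPM table holds 1 value per gene and library, and its header is shifted by 1 cell, so columns were matched by number and checked against the counts. All value columns were used. Of 55487 gene IDs, 55141 had a symbol. GENCODE M21 (GRCm38) gave positions, and a 50-base word was called shared when it occurs in a transcript of another gene.

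Counts were fitted with edgeR 4.0.16 (quasi-likelihood, filterByExpr, TMM, R 4.3.3) over all 20 libraries with 1 coefficient per group. P-values were adjusted by the Benjamini-Hochberg method over 16312 genes and called under 0.05. The procedure was tested on simulated data. CPM used TMM-scaled library sizes. Chi-square tests over 40 pairs of libraries found none alike (smallest statistic per degree of freedom 45.3). Alternatives were DESeq2 1.42.0, limma 3.58.1 (voom, log2(TPM + 1) and log2(TPM + 0.1)), RLE factors, library size alone, no filter, a stricter filter (1 CPM in 10 libraries), only the groups compared, and leaving out each library.

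Values in every library were given for the 6 most abundant members and the 3 of smallest p per genotype comparison. They were given for the 6 members called that rose and the 6 that fell most per fasting comparison (mean of at least 1 TPM). From other lists at most 4 genes were named. These were picked among genes called in a comparison and were not always those of smallest p. Members and lists were chosen with earlier results of these data known.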

Additional observations from a re-analysis of the deposited data

Results flagged for a closer look

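In groups of 5 libraries, a library was singled out when its distance to the next value exceeded 0.71 of the group's range (Dixon's test). Over 136 groups of members, 6 values were singled out, which is no more than the 1 in 20 that chance gives in independent groups. Members measured in the same libraries are not independent, and 3 of the 6 values came from Plin2-null fed replicate 4. In Plin2-null fed replicate 4, Cyp2c37 was at 1415 TPM (next 1012), Cyp2c54 at 736 TPM (next 560.4) and Cyp2c68 at 1366 TPM (next 1000.5), with distances of 0.711, 0.711 and 0.796 of the range. In Plin2+/+ fed replicate 4, Cyp2c55 was at 23.5 TPM (next 8.14, 0.772 of the range). In Plin2+/+ fasted replicate 1, Cyp2a12 was at 358 TPM (next 286, 0.818 of the range). In Plin2-null fasted replicate 5, Cyp2s1 was at 0.381 TPM (next 0.181, 0.719 of the range).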

How the results depend on the processing

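No paired analysis was possible because the labels give no number shared between groups. No result changed direction among those called. In Plin2-null liver, the number of members called higher with fasting was 2 in place of 4 with library size alone, on log2(TPM + 1) and on log2(TPM + 0.1). In fasted liver the number called lower in Plin2-null was 1 (Cyp2c38) in place of 0 with DESeq2, RLE factors, the stricter filter and only the groups compared. Leaving out 1 library at a time gave 4 to 4 members higher and 17 to 20 lower with fasting in Plin2+/+, 3 to 5 higher and 14 to 18 lower in Plin2-null, 0 to 1 higher and 0 to 1 lower between the genotypes in fasted liver, and 0 to 0 in the other genotype comparisons and the interaction. Without the 1 library named beside it above, Cyp2f2 (0.38) was called between the genotypes in fasted liver. Cyp2a5 and Cyp2j9 were called lower with fasting in Plin2+/+ liver with library size alone and both TPM fits. Cyp2j5 and Cyp2b13 were called lower in Plin2-null liver on the TPM scales. Members under 3 counts a library, or 0.0457 to 0.118 CPM, were below what these depths resolve. Counting error alone is covered by that limit. The cause of these changes was not tested.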

Other observations

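Of 23 Cyp2 pseudogenes in the TPM table, which are not among the members, 3 had a mean of at least 1 TPM over all libraries. Cyp2d38-ps was at 156 ± 28.6 TPM in Plin2+/+ fed, 50.02 ± 20.7 in Plin2+/+ fasted, 203 ± 28.4 in Plin2-null fed and 58.2 ± 23.1 in Plin2-null fasted liver (mean ± SD, n = 5 each). Cyp2d37-ps was at 143.7 ± 31.0, 48.8 ± 15.9, 174.6 ± 35.4 and 50.8 ± 22.3 TPM in the same order. Cyp2d36-ps was at 27.7 ± 10.6, 5.39 ± 2.40, 43.6 ± 17.1 and 10.3 ± 4.83 TPM. Their fasted means were lower in both genotypes. Among the 6 protein-coding Cyp2d members tested, the mean TPM of Cyp2d10, Cyp2d22 and Cyp2d40 was lower when fasted in both. That of Cyp2d9 was lower in Plin2+/+ and that of Cyp2d11 in Plin2-null liver alone, and that of Cyp2d26 was higher in both. In Plin2-null liver Cyp2d10 was at 440 ± 54.4 TPM fed and 425 ± 86.8 TPM fasted. With fasting there, the fit on log2(TPM + 1) moved the median of all genes by -0.17, and edgeR gave no fall of Cyp2d22. These pseudogene levels are a description without a test.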
